A study of Mus musculus with 12 samples.

Results

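The miRNAs carried by the myosin heavy chain genes were followed in 12 mouse hearts. They are mmu-miR-208a-3p, mmu-miR-208b-3p and mmu-miR-499-5p, taken by name from the 1881 miRNAs of the array, where all 3 have a row. MiR-208a-3p and miR-499-5p were detected in every heart, while miR-208b-3p was detected in none. Relative to the other miRNAs on the array, miR-208a-3p was 1.72-fold lower in diabetic hearts without pargyline than in controls. That call was lost under 5 of 16 alternative settings, and the difference without normalization was -0.12 on the log2 scale. Of the 128 miRNAs detected on all arrays, 50.0% passed the same comparison. MiR-499-5p did not differ detectably there. Under pargyline, miR-499-5p was 1.73-fold lower in diabetic than in control hearts, a call that was lost under 11 of 16 alternative settings.

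Mammalian heart muscle builds its thick filaments from a fast alpha myosin heavy chain, encoded by Myh6, and a slow beta chain, encoded by Myh7. The adult mouse ventricle uses almost only the alpha chain, and the beta chain returns in hearts under load, with low thyroid hormone or, in rodents, with streptozotocin diabetes. MiR-208a, miR-208b and miR-499 are processed from introns of Myh6, Myh7 and Myh7b, so that each is made together with a myosin mRNA. MiR-208a is known to be needed for the return of beta myosin in the stressed mouse heart. MiR-208b and miR-499 are known to act on repressors of slow muscle genes such as Sox6, and miR-208b is commonly read as a sign of Myh7 transcription.

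The hearts came from male C57BL6/J mice, 6 to 7 weeks old at the start and 5 months old according to the sample records, with 1 array for the heart of each of 3 mice per group. Control mice (C) received neither agent, and the paper describes them as given vehicle. Whether they were given the buffer of streptozotocin is not stated. C + P mice were controls given pargyline, an inhibitor of monoamine oxidase (MAO), intraperitoneally at 50 mg/kg per day for 12 weeks. Diabetic mice (D) had received streptozotocin, a toxin of pancreatic beta cells, intraperitoneally on 5 days (50 mg/kg each day), then vehicle. D + P mice received both agents. Mice counted as diabetic from a blood glucose of 17 mM.

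The mature sequences are shown because all 3 share bases 2 to 7 and because 2 of them are nearly alike. They are those of RefSeq (build GRCm38.p6), written 5′ to 3′ with the seed, bases 2 to 8, by which a miRNA mainly pairs with its targets, in capitals.
miR-208a-3p: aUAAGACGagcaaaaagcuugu
miR-208b-3p: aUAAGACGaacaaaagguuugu
miR-499-5p: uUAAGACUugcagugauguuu
Counted from the 5′ end, miR-208a-3p and miR-208b-3p are identical at 19 of 22 positions and have the same seed, and they differ by G10A, A16G and C18U, with the base of miR-208a-3p first. MiR-499-5p shares bases 2 to 7 with both and differs from miR-208a-3p within the seed by G8U. Over the first 21 positions it is identical to miR-208a-3p at 12 and to miR-208b-3p at 10. RefSeq gave a mature sequence under the same name for 1608 of the 1881 miRNAs on the array. Among these, only the 3 miRNAs described here have the letters UAAGAC at bases 2 to 7.

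In the mouse genome miR-208a-3p lies at chr14:54949072-54949093 and miR-208b-3p at chr14:54975710-54975731, both on the minus strand. Their hairpins are 26557 bases apart, and lie within the spans of Myh6 (chr14:54941921-54968017) and Myh7 (chr14:54970684-54994626), on the strand of these genes. MiR-499-5p lies at chr2:155622893-155622913 on the plus strand, within the span of Myh7b (chr2:155611243-155634307).

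The arrays differed in overall brightness. The summed signal of detected miRNAs ranged from 27107 to 89040, with the C arrays the dimmest, and 144 to 253 miRNAs were detected per array. Comparisons below use log2 signals normalized by cyclic loess over the 128 miRNAs detected on all 12 arrays, so each level is set against the other miRNAs on its array. Without normalization the median of these 128 was 0.77 higher in D than in C on the log2 scale, and 1.15 higher in C + P than in C. C and D arrays shared a slide, as did C + P and D + P arrays, so that slide cannot be told apart from pargyline, nor array row from diabetes. The extraction text of the sample records names macrophages, while the tissue is given as heart muscle. Heart-muscle miRNAs (4 of 4: miR-1a-3p, miR-133a-3p, miR-208a-3p and miR-499-5p) were detected on all 12 arrays, and the liver miRNA miR-122-5p and the brain miRNAs miR-124-3p and miR-9-5p on none. Of 6 listed leukocyte miRNAs, 3 were detected on all 12 arrays as well, so these markers do not settle the macrophage wording.

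MiR-208b-3p, the miRNA of the beta myosin gene, was not detected on any of the 12 arrays. The scanner software wrote its undetected value of 0.1 for it in all 4 groups. The lowest signal at which any miRNA was detected on an array ranged from 1.34 to 2.24. Since it belongs to a different probe set it sets no ceiling for miR-208b-3p, so a difference in miR-208b-3p between groups was not detectable here, and no fold or test is given. The opposite strands miR-208b-5p and miR-499-3p were also undetected on all 12 arrays.

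**Figure D1:**
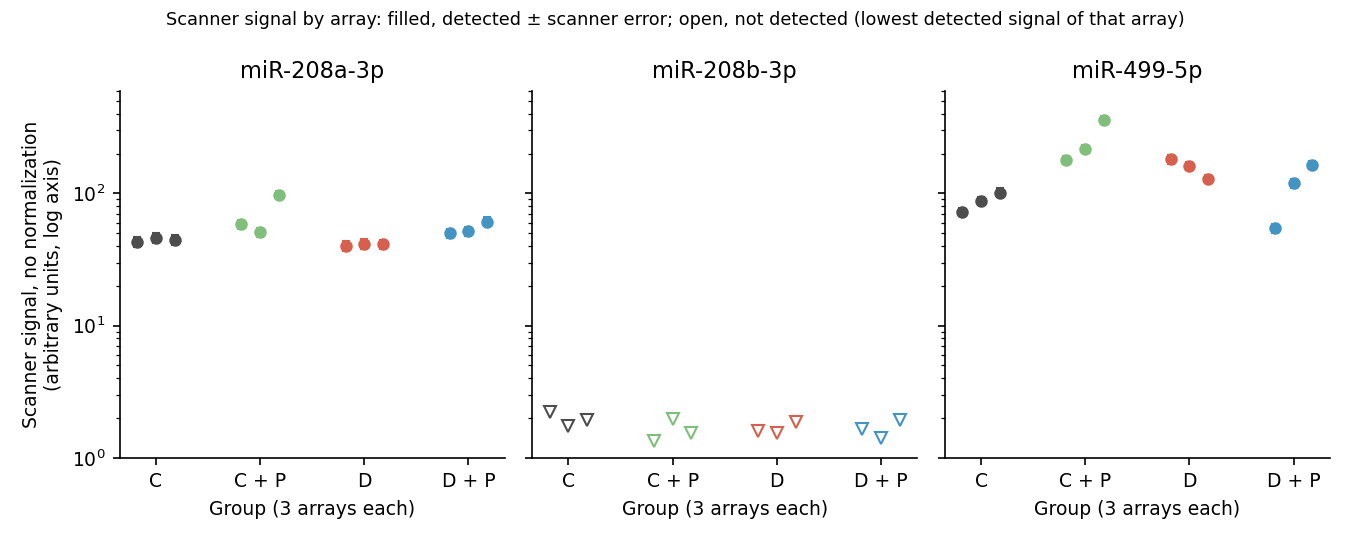
Scanner signal without normalization on a log axis for each array by group, with bars for the scanner's error. Filled points are detected, and open triangles mark arrays where miR-208b-3p was not detected, drawn at the lowest detected signal of that array (1.34 to 2.24). MiR-208a-3p stays between 40.2 and 97.3 while miR-499-5p spans 54.4 to 360.8.

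MiR-208a-3p, the miRNA of the alpha myosin gene, had scanner signals of 42.9, 46.0 and 44.4 on the C arrays and 40.2, 41.6 and 41.3 on the D arrays. On the C + P arrays they were 58.7, 51.2 and 97.3, and on the D + P arrays 49.8, 51.5 and 61.1. Every D array was thus below every C array, by less than the scanner's error of a single signal in the nearest pair, and the third C + P array stood above all others. The scanner's error was small throughout, since the signal of both detected miRNAs was 11.8 to 14.1 times its error.

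After normalization the level of miR-208a-3p was highest in C at 6.03 ± 0.17 (mean and SD of log2 signal, n = 3), followed by D + P at 5.67 ± 0.34, C + P at 5.56 ± 0.19 and D at 5.25 ± 0.18. In D it was lower than in C by 0.78 on the log2 scale (-0.78, standard error 0.18, limma adjusted p = 0.0073), and the arrays of these groups did not overlap. Among all 128 miRNAs, 50.0% passed the threshold in this comparison and 69.5% had arrays that did not overlap, so a pass was common. In order from the most reduced, miR-208a-3p was at place 20 of 128.
Without normalization miR-208a-3p differed between D and C by only -0.12 (standard error 0.28, limma adjusted p = 0.77), against a median of 0.77 for all 128. The lower level is therefore one relative to other miRNAs, whose signals were higher on the D arrays. The fall in D passed the threshold with each of the 12 arrays left out in turn, with values from -0.85 to -0.68.

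Between C + P and C, normalized miR-208a-3p differed by -0.47 (standard error 0.18, limma adjusted p = 0.059), which missed the threshold although the arrays did not overlap. Of all 128 miRNAs, 36.7% passed here and 75.8% did not overlap. Without normalization the difference was 0.58, in the opposite direction, and below the median shift of 1.15. Leaving out D + P replicate 1 or D + P replicate 3, which enter only through normalization and the pooled spread, brought it past the threshold (-0.47 in both, limma adjusted p = 0.012 and 0.045).

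Pargyline in diabetic hearts was compared through D + P and D. MiR-208a-3p was 0.42 higher in D + P (standard error 0.18, limma adjusted p = 0.065), with no overlap between arrays, and did not pass, whereas 53.9% of all 128 miRNAs passed and 56.2% did not overlap. With the authors' normalized values it was 0.08 (limma adjusted p = 0.77). It passed without D + P replicate 2 (0.57, limma adjusted p = 0.046) or D + P replicate 3 (0.49, limma adjusted p = 0.046). The 95% interval of the difference ran from 0.02 to 0.82. Against C hearts, D + P hearts differed by -0.35 with overlapping arrays (limma adjusted p = 0.31), and 1.56% of the 128 passed in that comparison, with 12.5% not overlapping. Without D + P replicate 1 that difference was -0.53 and passed (limma adjusted p = 0.026). Between D + P and C + P, both on slide 2, it was 0.12 (95% interval -0.28 to 0.515, limma adjusted p = 0.61), and 13.3% of the 128 passed with 43.0% not overlapping.
The interaction is the pargyline difference in diabetic hearts minus that in controls. For miR-208a-3p it was 0.89 (standard error 0.26, limma adjusted p = 0.0098), and 70.3% of all 128 miRNAs passed it. Without normalization it was -0.18, while the median of all 128 was -1.17.

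**Figure D2:**
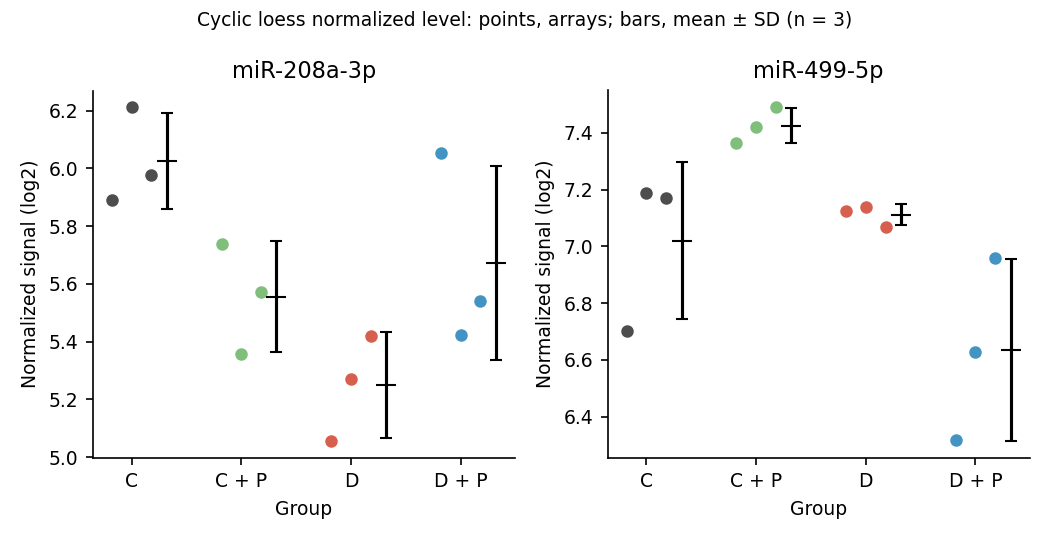
Normalized log2 signal of miR-208a-3p and miR-499-5p on each array, with the mean ± SD of the 3 arrays of each group. MiR-208a-3p is lowest in D (5.25) and highest in C (6.03), and miR-499-5p is highest in C + P (7.43) and lowest in D + P (6.64).

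MiR-499-5p, the miRNA of Myh7b, had scanner signals of 72.7, 87.9 and 101.5 in C, and 180.9, 161.6 and 128.5 in D. In C + P they were 179.6, 215.8 and 360.8, and in D + P 54.4, 119.0 and 164.0. All D and C + P arrays were thus brighter than all C arrays, and the D + P arrays spread from below C into the range of D. After normalization the order was C + P (7.43 ± 0.06), D (7.11 ± 0.04), C (7.02 ± 0.28) and D + P (6.64 ± 0.32), each as mean and SD of 3 log2 signals.
D and C arrays overlapped, with a difference of 0.09 (95% interval -0.29 to 0.47, limma adjusted p = 0.65). That interval leaves room for a rise or a fall of about that size. Without normalization miR-499-5p was 0.84 higher in D, close to the median of 0.77 for all 128.

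Under pargyline, miR-499-5p fell between C + P and D + P by 0.79 on the log2 scale (standard error 0.17, limma adjusted p = 0.018). The normalized C + P values were 7.37, 7.42 and 7.49, and the D + P values 6.32, 6.63 and 6.96, with no overlap. Of all 128 miRNAs, 13.3% passed in this comparison and 43.0% did not overlap. From the most reduced, miR-499-5p was at place 8 of 128 in this comparison, which lies within 1 slide. Every alternative gave a lower level in D + P, from -1.24 to -0.62, but the call was lost under 11 of 16 settings. With the authors' normalized values the difference was -1.03 (limma adjusted p = 0.076). The call was also lost without C + P replicate 2 (-0.79), C + P replicate 3 (-0.76) or D + P replicate 2 (-0.78), with limma adjusted p from 0.065 to 0.075.

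In diabetic hearts, miR-499-5p was lower with pargyline than without by 0.48 (-0.48, standard error 0.17, limma adjusted p = 0.042), and D + P and D arrays did not overlap. Of all 128 miRNAs, 53.9% passed here and 56.2% did not overlap. The call of miR-499-5p was near the threshold and was lost under 12 of 15 settings and in 9 of 12 leave-one-out fits. It remained past the threshold only without C replicate 1, C replicate 2 or D + P replicate 3, and without D + P replicate 1 the difference was -0.30 (limma adjusted p = 0.15). In control hearts, miR-499-5p was 0.41 higher in C + P than in C without passing (standard error 0.17, limma adjusted p = 0.083), and passed without D + P replicate 1 or D + P replicate 3 (limma adjusted p = 0.030 and 0.038). D + P hearts differed from C by -0.39 (limma adjusted p = 0.27), and by -0.24 without D + P replicate 1 (limma adjusted p = 0.29).
The interaction of diabetes with pargyline was -0.88 for miR-499-5p (standard error 0.25, limma adjusted p = 0.0091). It passed with each array left out in turn, and was -2.08 without normalization, where the median of all 128 was -1.17. The interaction thus passed for both detected miRNAs, with opposite signs after normalization and the same sign without it. It also passed for 70.3% of all 128 miRNAs.

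**Figure D3:**
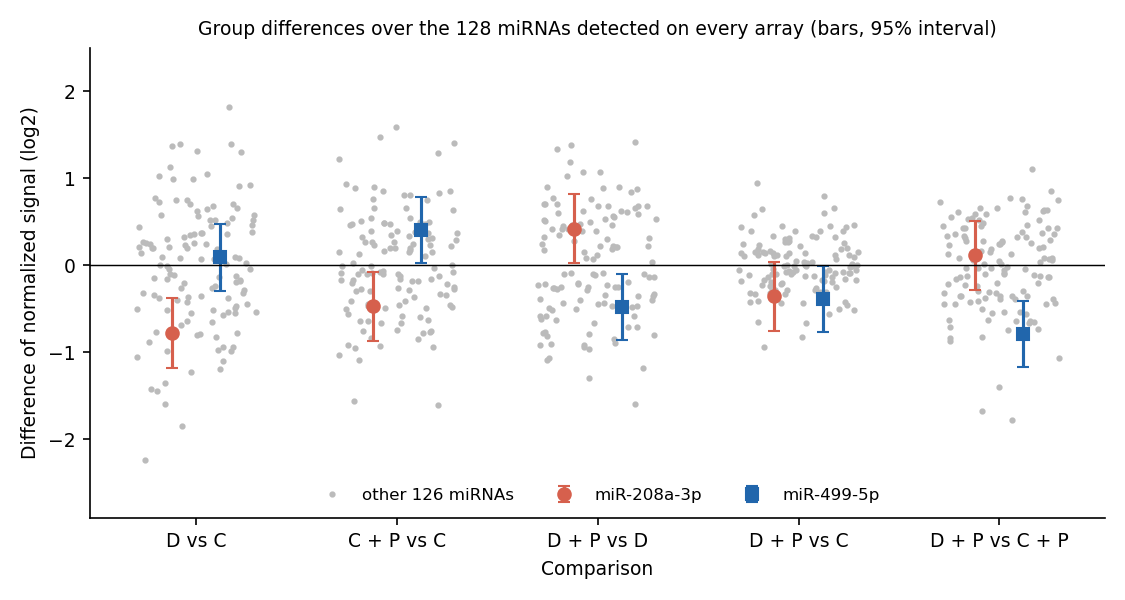
Difference of normalized log2 signal for 5 comparisons, with miR-208a-3p (circles) and miR-499-5p (squares) and their 95% intervals over the other miRNAs detected on every array (grey points). MiR-208a-3p lies at -0.78 in D against C, and miR-499-5p at -0.79 in D + P against C + P, both within the range of the other miRNAs.

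Diabetes was also compared over both pargyline levels by exchanging labels within each level. MiR-208a-3p was lower in diabetic hearts by a mean of 0.33 (-0.33, exact permutation p = 0.115, two-sided, 400 arrangements), and miR-499-5p by 0.35 (-0.35, exact permutation p = 0.065). Neither passed, and the smallest p this design allows is 0.005. Each mean joins differences of opposite sign in the absence and presence of pargyline. These were -0.78 and 0.12 for miR-208a-3p, and 0.09 and -0.79 for miR-499-5p.

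The ratio of both signals on the same array is free of a single factor that scales the whole array. A shift that depends on the signal level would stay in it. MiR-499-5p over miR-208a-3p was 1.69, 1.91 and 2.28 in C, and 4.50, 3.88 and 3.11 in D. It was 3.06, 4.22 and 3.71 in C + P, and 1.09, 2.31 and 2.68 in D + P. C and D + P were thus low and overlapped, D and C + P were high and overlapped, and no array of the low groups reached one of the high groups. The ratio was 1.95-fold higher in D than in C, 1.86-fold higher in C + P than in C, 2-fold lower in D + P than in D, and 1.92-fold lower in D + P than in C + P. Each of these had an exact permutation p = 0.1 (two-sided), the smallest that 3 arrays against 3 can give. Such a ratio shows an unequal change of the pair, and does not show which of them changed. Over both pargyline levels the effect of diabetes on the log2 ratio of miR-208a-3p to miR-499-5p was -0.01 (exact permutation p = 0.975), because the differences in the absence and presence of pargyline had opposite signs (-0.96 and 0.94).

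**Figure D4:**
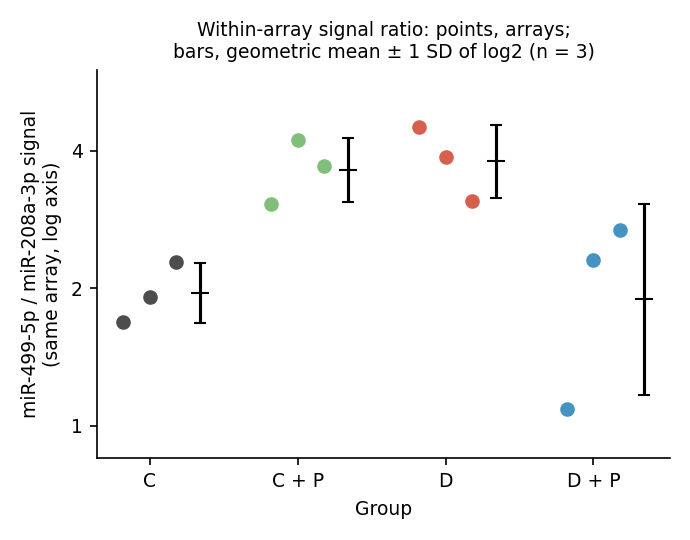
Signal of miR-499-5p divided by that of miR-208a-3p on the same array, on a log axis, with the geometric mean and 1 SD of the log2 ratio (n = 3). C (1.69 to 2.28) and D + P (1.09 to 2.68) lie below D (3.11 to 4.50) and C + P (3.06 to 4.22).

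The ratio and the level of miR-208a-3p were also set beside array brightness. The 4 arrays with the lowest summed signal, 27107 to 39661, were the 3 of C and D + P replicate 1, a set picked after the values had been seen. They held the 4 lowest ratios (1.09 to 2.28, against 2.31 to 4.50 on the other 8 arrays) and the 4 highest normalized levels of miR-208a-3p (5.89 to 6.21, against 5.06 to 5.74). Of the 128 miRNAs, 21 had their 4 highest and 23 their 4 lowest normalized levels on these same arrays. D + P replicates 2 and 3 had ratios of 2.31 and 2.68 with summed signals of 50432 and 58631. D replicate 3 was dimmer than both (48104) and had a higher ratio (3.11). All C arrays were dimmer than all arrays of the other groups, so in comparisons with C brightness cannot be told apart from group. The part of brightness in the results for miR-208a-3p and for the ratio was not tested.

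**Figure D5:**
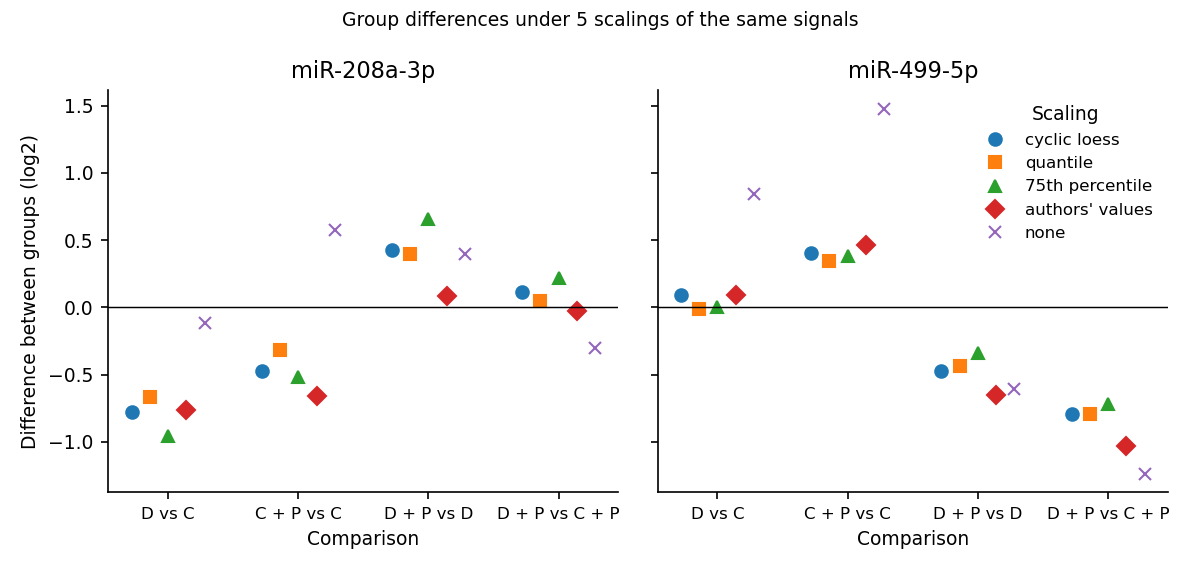
Difference between groups on the log2 scale for miR-208a-3p and miR-499-5p under 5 scalings of the signals, for 4 comparisons. In C + P against C, miR-208a-3p is at -0.47 with cyclic loess and at 0.58 without normalization, and in D + P against C + P miR-499-5p is below 0 under all 5.

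Marker miRNAs of other cell types also differed between groups. The 3 leukocyte miRNAs measured on every array (of 6 listed) had summed normalized signals of 25.8 to 36.3 for C hearts and 56.8 to 63.2 for C + P hearts. For D hearts they were 38.0 to 52.0, and for D + P hearts 11.2 to 34.1. For 3 of 4 fibroblast miRNAs the sums were, in the same order, 140 to 154, 204 to 218, 178 to 205 and 99.0 to 164. The leukocyte sum was thus highest on the C + P arrays, and both sums reached their lowest values in D + P while overlapping with C there. The 1 of 4 endothelial miRNAs measured on every array had 669 to 719, 802 to 899, 785 to 797 and 612 to 776, and the 2 of 2 smooth muscle miRNAs 59.8 to 70.5, 86.6 to 103, 86.1 to 89.7 and 78.8 to 99.6. The 3 red cell miRNAs summed to 758 to 943 in C and 584 to 768 in the other groups. The 4 heart-muscle miRNAs, 2 of them described here, summed to 3463 to 3568 for C, 5098 to 5909 for C + P, 4653 to 5618 for D and 2692 to 4995 for D + P. This sum is mostly miR-1a-3p and miR-133a-3p, and the 4 did not move together. In D against C they differed by 1.32 (miR-1a-3p), 0.01 (miR-133a-3p), -0.78 (miR-208a-3p) and 0.09 (miR-499-5p). The part of cell composition was not tested, and in whole hearts fewer muscle cells and less of a miRNA per cell cannot be told apart.

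Of 12 listed opposite strands and other muscle miRNAs, 11 were on the array under the name searched, 5 were detected in every heart and 5 in none, among them miR-206-3p of skeletal muscle. In D against C, 1 of the 5 rose past the threshold and 0 fell, at a median of 0.01 against 0.02 for all 128, of which 50.0% passed. Without normalization the list median was 0.95, against 0.77 for all 128. MiR-1a-3p was the one that rose, by 1.32 (standard error 0.26, limma adjusted p = 0.0035), and it also rose in C + P against C, by 1.48 (standard error 0.26, limma adjusted p = 0.0055). By common knowledge it is the most abundant miRNA of heart muscle. On the C arrays, however, its mean scanner signal was 723, below miR-133a-3p (1305) and miR-133b-3p (1919). It was above both only in C + P (4986, against 3032 and 4391). MiR-133a-3p, made from a shared transcript with miR-1a, differed by 0.01 between D and C (95% interval -0.32 to 0.33), and by 0.98 without normalization (limma adjusted p = 0.033). In C + P against C, where 36.7% of all 128 passed, 1 of the 5 rose and 1 fell, the latter being miR-486a-5p (-0.85, standard error 0.20, limma adjusted p = 0.017), which red cells hold as well. Without normalization its difference had the opposite sign (0.21, limma adjusted p = 0.47). In D + P against D, where 53.9% of all 128 passed, 0 rose and 1 fell, miR-1a-3p (-0.71, standard error 0.26, limma adjusted p = 0.042). In D + P against C + P, where 13.3% of all 128 passed, miR-1a-3p fell (-0.87, limma adjusted p = 0.045) and miR-486a-5p rose (0.76, limma adjusted p = 0.032). Without normalization these 3 calls were lost, with -1.07, -1.53 and 0.32 (limma adjusted p = 0.11, 0.057 and 0.44). In D + P against C, 0 of the 5 passed limma's threshold (1 at an unadjusted p under 0.05), against 1.56% of all 128. The interaction was lower than 0 for miR-1a-3p (-2.19, limma adjusted p = 0.0026) and above 0 for miR-486a-5p (0.97, limma adjusted p = 0.0096), the latter with a value of -0.17 without normalization.

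The miRNAs whose levels ran most like those of each member were found by the root mean square difference of centred log2 levels over the 12 arrays. For miR-208a-3p these were miR-7018-5p (0.16), miR-7082-5p (0.18) and miR-3473b (0.20), against a median of 0.42 for the 127 other miRNAs. All 3 had lower values in D than in C (-0.52, -0.69 and -0.54) and higher values in D + P than in D. They were picked for likeness over these same arrays, so this shared direction follows from the choice. For miR-499-5p they were miR-345-5p (0.18), miR-21a-5p (0.18) and miR-1949 (0.18), against a median of 0.46. The distance between miR-208a-3p and miR-499-5p themselves was 0.53, larger than both medians.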

How the data were processed

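MiRNAs were profiled on 12 1-colour Agilent mouse miRNA arrays. The authors deposited, per array, the scanner software's total gene signal as an intensity, its error and a detection flag for 1881 miRNAs, written as 0.1 where undetected and not normalized between arrays. A second table they deposited holds their cyclic loess intensity values of 209 miRNAs, each detected throughout 1 or more groups, beside 10 control features. RNA was extracted with TRIzol per the labels.

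Here, signals of the 128 miRNAs detected on all arrays were taken to log2, and cyclic loess was run on them (limma 3.58.1, R 4.3.3, span 0.7, 3 iterations). The 4 group means were fitted together with lmFit and eBayes, and p-values were adjusted over all 128 (Benjamini-Hochberg, threshold 0.05). Exact permutation tests exchanged labels within pargyline levels. On simulated D against C data with 40 of 128 miRNAs changed by 1 (log2), 90.5% were recovered and 6.45% of calls were false. The simulated arrays had no differences in brightness and as many rises as falls, so these rates do not cover the scaling of the real arrays. The number of arrays limits precision. The titles number the mice of each group, and same-numbered arrays are different mice; their deviations correlated between -0.37 and 0.49, so no block was used. No 2 arrays held identical signals.

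Members, lists and tests were chosen with earlier results of these data known. Named miRNAs are the 3 members, their opposite strands, other muscle miRNAs and, per member, the 3 most alike. Alternatives were other normalizations, detection filters, an offset of 16, the authors' values, an intensity trend, a replicate block, 2-group fits, Holm adjustment, leaving out each array and the methods' t-test. The ratio from normalized values was added after seeing the data. Ratios with miR-208b-3p could not be formed.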

Additional observations from a re-analysis of the deposited data

Results flagged for a closer look

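The effect of pargyline differed between diabetic and control hearts in both detected members by limma's interaction test, by 0.89 on the log2 scale for miR-208a-3p and by -0.88 for miR-499-5p. The test passed for 70.3% of all 128 miRNAs, and without normalization the value for miR-208a-3p was -0.18.

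MiR-208a-5p, the opposite strand of miR-208a-3p, was outside the comparisons and was detected on 3 arrays, all of C + P, and on 0 C arrays. Its sequence in RefSeq is gagcuuuuggcccggguuauac. The signals were 3.30, 3.12 and 8.13, which is 3.5, 3.1 and 5.4 times the scanner's error. These arrays had summed signals of 57895, 62751 and 89040, while D replicate 1 (61254) and D + P replicate 3 (58631), brighter than the first of them, did not show it.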

How the results depend on the processing

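Among the comparisons of single miRNAs, the fall of miR-208a-3p in D against C kept its direction in all 16 settings and 12 leave-one-out fits, and its call in 11 and 12 of them. Settings that change only the test, its spread or its adjustment keep the same estimate and could not turn its direction. Other comparisons, such as miR-499-5p in D + P against C + P, also kept their direction throughout. The limits lie in the scaling and in 3 arrays per group. Scaling to the 75th percentile of all miRNAs equals no normalization, since over that share was undetected, and both are given as 1 value. Each still counts among the 16 settings. Each slide normalized alone applies to the comparisons within a slide, and the t-test and 2-group fits to comparisons of 2 groups. The cause of a lost call was not tested.

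Without normalization miR-208a-3p was -0.12 in D against C, 0.58 in C + P against C, 0.28 in D + P against C, -0.30 in D + P against C + P and -0.18 in the interaction. MiR-499-5p was then 1.48 in C + P against C (past the threshold), -0.61 in D + P against D, 0.24 in D + P against C and -1.24 in D + P against C + P. With quantile normalization miR-499-5p was -0.02 in D against C (-0.0153), -0.44 in D + P against D and -0.79 in D + P against C + P. With percentile scaling of miRNAs detected on all arrays, miR-208a-3p was 0.66 and passed in D + P against D, and miR-499-5p was -0.34 in D + P against D and -0.72 in D + P against C + P. With the authors' values, miR-208a-3p was -0.66 and passed in C + P against C and was -0.02 (-0.0247) in D + P against C + P, 0.08 in D + P against D and -0.68 in D + P against C, and miR-499-5p was -0.65 in D + P against D and -1.03 in D + P against C + P.

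Without a detection filter miR-208a-3p was -0.78 in D against C and 0.87 in the interaction, and miR-499-5p -0.43 in D + P against D, -0.74 in D + P against C + P and -0.81 in the interaction, none of them past the threshold. With other filters miR-499-5p was -0.46 and -0.43 in D + P against D and -0.76 in D + P against C + P. Holm adjustment lost the calls of miR-208a-3p in D against C (-0.78) and the interaction (0.89), and of miR-499-5p in the interaction (-0.88), in D + P against D (-0.48) and likewise in D + P against C + P (-0.79). The methods' t-test with Holm lost the call of miR-208a-3p in D against C, and with either adjustment it lost those of miR-499-5p in D + P against D and D + P against C + P. When only the 2 groups were fitted, these last 2 were lost, while in C + P against C both miR-208a-3p (-0.47) and miR-499-5p (0.41) passed. With 16 added, miR-499-5p in C + P against C was 0.37 and passed.

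Leave-one-out ranges were -0.0825 to 0.17 for miR-499-5p in D against C, -0.56 to -0.38 and 0.24 to 0.48 for miR-208a-3p and miR-499-5p in C + P against C, 0.25 to 0.57 and -0.64 to -0.30 in D + P against D, -0.53 to -0.22 and -0.55 to -0.24 in D + P against C, and -0.0653 to 0.25 and -0.96 to -0.62 in D + P against C + P. The diabetes effect on the log2 ratio of miR-208a-3p to miR-499-5p, -0.01, was 0.0189 with 16 added, 0.0734 with the authors' values, 0.0190 with loess values and -0.21 to 0.12 with 1 array left out.

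The number of miRNAs past the limma threshold was 64 in D against C, 47 in C + P against C, 69 for D + P against D, 2 when D + P was set against C, 17 in D + P against C + P and 90 in the interaction. In D against C it was 98 with detection in at least 1 group, 5 without a filter, 13 with Holm and 3 by the t-test with Holm, and 33 to 88 with 1 array left out (33 without C replicate 2 and 42 without C replicate 3). In C + P against C it was 31 with percentile scaling, 96 without normalization (all higher), 22 with detection on at least 1 array, 4 without a filter, 29 with the authors' values, 85 with 2 groups, 3 with Holm, 4 by the t-test with Holm and 3 to 79 with 1 array left out (3 or 4 without C replicate 2 or 3 or C + P replicate 2 or 3, 23 without C + P replicate 1, 79 without D + P replicate 1). For D + P against D the count was 34 with quantile, 8 without normalization, 3 with the authors' values, 5 with Holm and 13 to 89 with 1 array left out (26 and 13 without D replicates 1 and 2, 29 without D + P replicate 1). It was 0 there without a filter, with 2 groups and by the t-test (128, 52 and 32 at an unadjusted p under 0.05). In D + P against C it was 4 with quantile, 1 with percentile scaling, with the trend and with Holm, 18 without normalization, 10 and 5 with other filters, and 0 to 32 with 1 array left out (32 without D + P replicate 1, 6 without D + P replicate 3, and 0 to 3 in the other 10). It was 0 there without a filter, with 16 added, with the authors' values, with 2 groups and by the t-test (35, 24, 26, 8 and 10 unadjusted). In D + P against C + P it was 7 with quantile, 3 with percentile scaling, 2 without normalization and with Holm, 8 with detection on at least 1 array, 33 with 16 added, 1 with the authors' values and with 2 groups, and 1 to 73 with 1 array left out (73 without D + P replicate 3, 14 and 16 without D replicates 1 and 3, and 1 to 10 in the other 9). It was 0 there without a filter and by the t-test (69 and 24 unadjusted). For the interaction it was 2 without a filter and 16 with Holm. Scaling also moved the split of calls: 31 higher and 33 lower in D against C became 18 and 38 with percentile scaling, 57 and 3 without normalization and 14 and 33 with the authors' values; in C + P against C, 23 and 24 became 5 and 24 with the authors' values; in D + P against D, 34 and 35 became 44 and 9 with percentile scaling, 8 and 0 without normalization and 0 and 3 with the authors' values; in D + P against C, 2 and 0 became 2 and 2 with quantile; in D + P against C + P, 7 and 10 became 2 and 5 with quantile, 0 and 2 without normalization and 0 and 1 with the authors' values; and for the interaction 45 and 45 became 47 and 29 with percentile scaling and 3 and 67 without normalization.

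With the replicate number as a block, D + P against C + P had 8 calls, and the calls of the members did not change. The numbers do not pair the mice.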

Other observations

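In the authors' normalized table, miR-208a-5p has a value on every array. On the 9 arrays where the scanner software did not detect it, these values ran from 0.00688 to 8.46, and on the 3 arrays where it was detected from 0.0184 to 0.385. The highest normalized value belonged to C replicate 3, where it was undetected, and C + P replicate 3, which had the highest scanner signal (8.13), had the lowest normalized value of the detected arrays.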
